A study of Homo sapiens and Mus musculus with 10 samples.

Results

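Antisense transcripts are RNAs named for the gene on the opposite DNA strand, with the suffix -AS1, -AS2 or -AS3 after that gene's symbol. The set described here held every row of the HEK293T stress table with such a symbol and 50 or more reads in at least 1 of its 3 libraries, with SLC7A11-AS1 and VPS9D1-AS1 left out. By that rule 156 of 16120 rows were members, 150 named -AS1 and 6 named -AS2, out of 428 rows with an antisense suffix at any depth. The reads that chose the members came from the stress set, so levels and changes in those 3 libraries describe chosen rows. The rule did not use the reads of the 4 libraries of the genotype set.

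The RNA came from HEK293T, a human embryonic kidney line, as total RNA with ribosomal RNA depleted. The stress set held 1 library each of WT (wild-type) cells under mock treatment, glucose deprivation for 24 hours (GD, labelled as a metabolic oxidative stress) and 300 nM thapsigargin for 6 hours (TG, which empties the calcium store of the endoplasmic reticulum and stresses it). The genotype set held WT cells and cells labelled UFD1s-deficient, each as 1 mock library and 1 library after the same 24 hours of GD; the sources used here do not give how the deficiency was made or whether that line is 1 clone. Each condition had 1 library in a set, nothing states that libraries came from separate cultures, and the p-values below therefore measure only the spread between these libraries, which may be technical. Mouse N2a libraries were not used here.

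Many antisense transcripts begin near the start of a protein-coding gene and run away from it or back through it, others start inside the gene, and others meet it tail to tail. Some are known to act on the neighbouring gene's transcription or RNA, and some host small nucleolar RNAs, but for most no function is known. As a class they are mostly nuclear and many are trimmed or destroyed by the nuclear exosome soon after they are made.

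In GENCODE, 149 of the 156 pairs were placed with both genes on 1 chromosome, and all 149 lay on opposite strands. The 5 prime ends faced each other in 80 pairs, the 3 prime ends in 36, the antisense gene lay within the sense gene in 26 and spanned it in 7. Exon bases overlapped in 111 pairs. The sources used here do not give whether the counting used strand, so where exons overlap, reads of the 2 transcripts may not be told apart.

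RefSeq (GRCh38.p14) promoter windows, from 250 bases before to 50 after the start, matched 109 members by symbol. The 3 printed here belong to the members that rose in GD while their sense transcripts fell (below), which were picked after their values were seen, and capitals mark CG dinucleotides. The EPB41L4A-AS1 window is chr5:112160276-112160575 (plus strand, 7 CG), the FBXL19-AS1 window chr16:30923220-30923519 (minus strand, 20 CG) and the MRPL23-AS1 window chr11:1989871-1990170 (minus strand, 13 CG).
EPB41L4A-AS1: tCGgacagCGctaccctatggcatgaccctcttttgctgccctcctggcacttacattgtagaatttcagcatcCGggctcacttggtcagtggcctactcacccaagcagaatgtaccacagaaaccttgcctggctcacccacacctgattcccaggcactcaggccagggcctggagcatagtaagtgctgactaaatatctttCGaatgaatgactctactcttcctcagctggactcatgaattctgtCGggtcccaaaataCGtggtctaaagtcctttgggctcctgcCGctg
FBXL19-AS1: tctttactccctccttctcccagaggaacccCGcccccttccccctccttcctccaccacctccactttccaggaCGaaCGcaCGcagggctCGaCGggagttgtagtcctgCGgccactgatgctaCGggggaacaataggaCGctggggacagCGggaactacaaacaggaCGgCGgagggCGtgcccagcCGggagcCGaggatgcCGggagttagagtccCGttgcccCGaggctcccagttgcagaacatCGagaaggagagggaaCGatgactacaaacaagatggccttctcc
MRPL23-AS1: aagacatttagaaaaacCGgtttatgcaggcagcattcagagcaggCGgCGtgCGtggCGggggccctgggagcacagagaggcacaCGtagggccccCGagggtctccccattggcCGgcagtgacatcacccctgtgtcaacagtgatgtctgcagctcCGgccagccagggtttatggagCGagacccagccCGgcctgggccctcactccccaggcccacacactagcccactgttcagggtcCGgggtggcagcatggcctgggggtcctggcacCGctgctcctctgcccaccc
The median over the 109 windows was 20 CG dinucleotides, against 14 over all 35116 windows. On either strand, TGATGNAA, the core of sites bound by ATF4 with C/EBP proteins, was in 0 of the 109 windows and in 3.62% of all windows. The endoplasmic reticulum stress element was in 0 of the 109 and in 0.0769% of all. Among the 101 pairs with both windows on opposite strands, 17 were transcribed away from each other from starts within 1000 bases, and in 28 the antisense start lay inside the sense gene within 1000 bases of its start.

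Libraries held 11461365 (genotype-set WT GD) to 19024327 reads (stress-set TG), and members took 0.229% (stress-set TG) to 0.282% (stress-set GD) of them. HEK293T marker genes were present, with VIM at 11447 to 16304 reads and NEFL at 1146 to 3445, while PTPRC and CD3E had no row; the keratin and neurofilament genes KRT8, KRT18 and NEFM stood at 77 reads or fewer. NEFL had fewer reads in GD than in mock in each pair (2952 and 1146 in the stress set, 2945 and 1407 in WT, 3445 and 2142 in deficient cells, mock then GD). So did the fibroblast collagens, COL1A1 (459 and 168, 655 and 222, 846 and 380) and COL3A1 (208 and 47, 355 and 108, 514 and 251). The marker gene INA also had fewer in the stress set (139 and 68). It had more in WT (82 and 100) and in deficient cells (113 and 120). These reads are unscaled, and each GD library was smaller than its mock library. Mock and GD totals were 16990125 and 12771607 reads in the stress set, 12379960 and 11461365 in WT, and 13110714 and 11912659 in deficient cells. ALB, CDH5 and PECAM1 had 10 reads or fewer where listed. MALAT1, a nuclear RNA, rose from 1.50% to 3.52% of reads with GD in the stress set, from 1.79% to 2.50% in WT and from 1.60% to 2.22% in deficient cells of the genotype set. The ribosomal RNA precursor RNA45SN5 took 7.73% of reads in mock, 10.7% in GD and 8.31% in TG of the stress set. It had no row under that symbol for the genotype set. The collagens and NEFL thus had fewer reads in GD, while MALAT1 and, in the stress set, RNA45SN5 took a larger share. The antisense changes below went in both directions, and the part of these shifts in them was not tested.

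Most members were scarce. The median member had 76.3 reads per library over the 6 mock and GD libraries, against 346 for all tested transcripts. WAC-AS1 and UGDH-AS1 alone made up 41.0% to 46.8% of the members' reads. WAC-AS1 had 6450 to 11688 reads in the 7 libraries and UGDH-AS1 6693 to 10435, and their GD changes were -0.15 ± 0.09 (SE) and 0.08 ± 0.09 on the log2 scale. OIP5-AS1, which followed with 982 to 1694 reads, TTN-AS1 and SVIL-AS1 were the next by reads over the stress set. None of these 5 passed the GD test.

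All 3 stress libraries held 50 or more reads of 91 members, 33 members passed in 2 libraries, and 32 passed in only 1 (15 in mock, 5 in GD, 12 in TG). Among those just inside the limit were FOXN3-AS2, MELTF-AS1 and SMC5-AS1, each with a highest library at 50 reads. Just outside lay LDLRAD4-AS1, STPG3-AS1 and TPT1-AS1 at 49. A member that entered through the 1 library where it was high had to differ there, so differences within the stress set alone are given as values with no test. The fit over 6 libraries also holds the stress-set mock and GD pair that the rule read, so its counts are no independent support. The genotype set alone, given after it, did not enter the read limit. The members were, however, chosen with earlier results of these data known.

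In GD, 10 antisense transcripts rose and 5 fell among the 155 that both tables held (edgeR quasi-likelihood test over the 3 mock and GD pairs, 2 residual degrees of freedom, Benjamini-Hochberg adjusted p under 0.05 over 10368 transcripts). That is 9.68% of the members, against 20.9% of all tested transcripts. Of all transcripts 9.75% rose and 11.1% fell; of the members 6.45% rose and 3.23% fell. Members have few reads and a median SE of 0.27 on the log2 scale, against 0.15 for all. Among the 3789 transcripts with mean reads in the members' central range, 14.8% were called, 6.23% higher and 8.52% lower, against 14 of 123 members, 9 higher and 5 lower. With library totals as the scaling the split was 9 higher and 8 lower. At an unadjusted p under 0.05 there were 39 members (25.2%), against 35.3% of all. The members' median change was 0.08, against -0.02 for all.

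**Figure D1:**
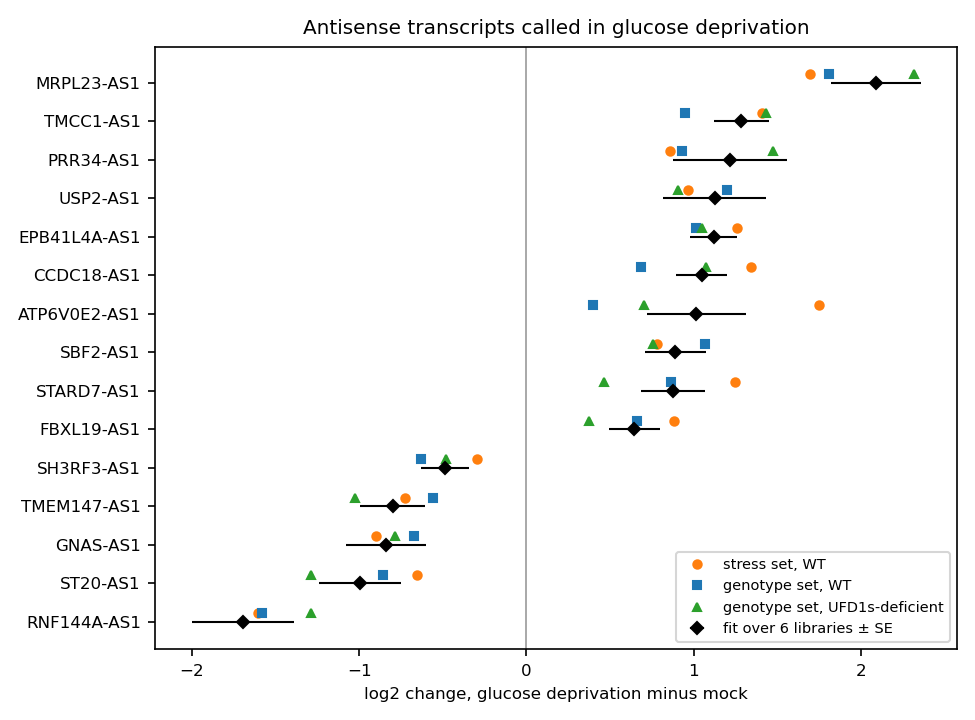
Log2 change from mock to GD for the 15 called antisense transcripts. Coloured points are the 3 mock and GD pairs (prior count of 5 reads) and black diamonds the edgeR fit over 6 libraries with its SE. In each of the 15 transcripts all 3 pairs lie on one side of 0, which follows largely from their being called on these same pairs.

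MRPL23-AS1 had the largest rise. Its sense gene MRPL23 encodes a protein of the large subunit of the mitochondrial ribosome, and the pair meet with their 3 prime ends. The level of MRPL23-AS1 in CPM (reads divided by the library's TMM-scaled total, within each table) was 1.72, 4.39 and 1.49 under mock in the stress set, WT and deficient cells, and 6.29, 16.4 and 9.02 under GD. Every GD library lay above every mock library, although the mock levels themselves differed and the deficient mock library held only 20 reads. The fitted change was 2.09 ± 0.27 (log2 ± SE, edgeR adjusted p 0.00122). The tables of the stress and genotype sets hold different rows and were scaled separately, so their CPM are not on one scale. The share of all transcripts whose GD and mock libraries do not overlap was not counted, here or for the members below. These members were picked by the test on the same libraries.

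TMCC1-AS1 lies head to head with TMCC1, which encodes a membrane protein of the endoplasmic reticulum. It stood at 15.5, 13.1 and 7.39 CPM under mock and 41.7, 25.6 and 20.6 under GD, in the same order of libraries. The groups did not overlap, and the fitted change was 1.28 ± 0.16 (edgeR adjusted p 0.00121). CCDC18-AS1, at the 3 prime end of the coiled-coil gene CCDC18, went from 23.4, 22.4 and 14.3 CPM to 60.0, 36.2 and 30.6, a change of 1.05 ± 0.15 (edgeR adjusted p 0.00228). The groups did not overlap here either, and in both transcripts the deficient mock library was the lowest.

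EPB41L4A-AS1, a host of the small nucleolar RNA SNORA13, lies within EPB41L4A, a gene of the band 4.1 family of membrane-skeleton proteins. Mock levels of 11.9, 16.8 and 17.8 CPM became 29.0, 34.4 and 37.1 CPM in GD. The 3 pairs rose by like amounts, with no overlap, and the fitted change was 1.12 ± 0.14 (edgeR adjusted p 0.00115). STARD7-AS1, head to head with the gene of the lipid-transfer protein STARD7, went from 8.52, 12.6 and 12.5 CPM to 20.7, 23.3 and 17.4. The change was 0.87 ± 0.19 (edgeR adjusted p 0.0125), with the smallest rise in the deficient cells.

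RNF144A-AS1, head to head with the ubiquitin ligase gene RNF144A, had the largest fall. Its mock levels were 7.14, 7.28 and 3.51 CPM and its GD levels 2.12, 2.16 and 1.20 CPM, from 47 to 129 reads under mock and 14 to 26 under GD. Each GD library lay below each mock library, and the fitted value fell by 1.70 ± 0.31 (edgeR adjusted p 0.0055). These 6 transcripts kept their calls in all 6 fits that left out 1 library. The library whose partner is left out is fitted exactly, so these 6 fits amount to leaving out each of the 3 pairs.

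**Figure D2:**
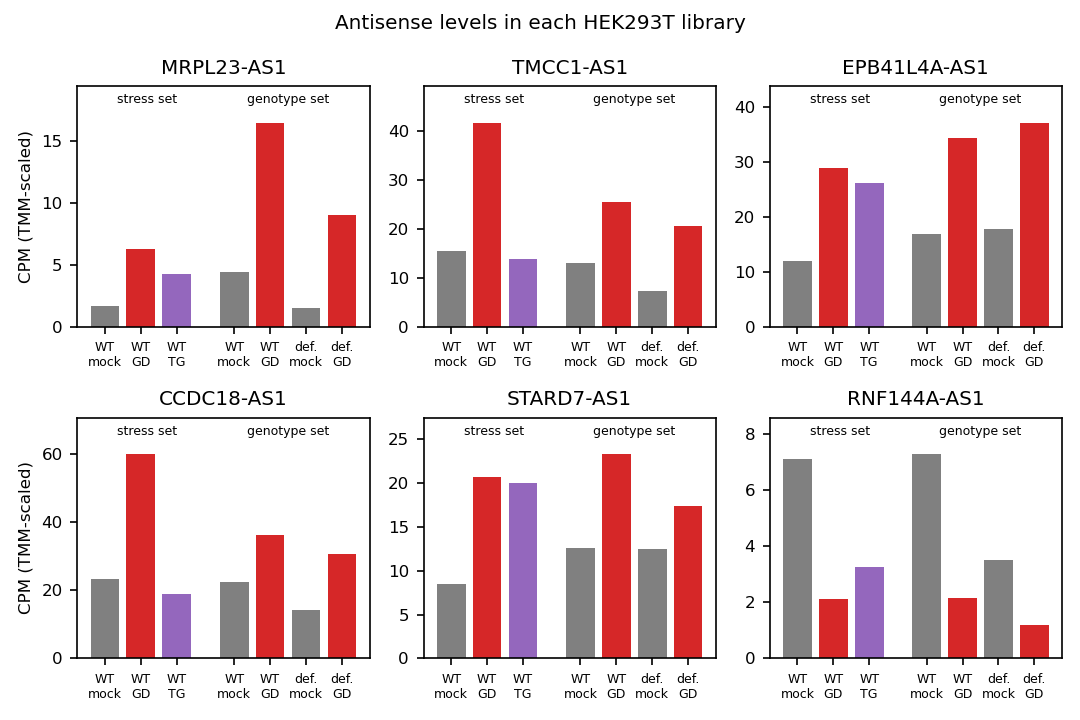
TMM-scaled CPM of the 6 antisense transcripts whose GD call held in all 6 fits that left out 1 library, 1 bar per library, for the stress set (left bars) and genotype set (right bars; def. is UFD1s-deficient). Red GD bars are above the grey mock bars of their set in 5 panels and below them for RNF144A-AS1, and purple is TG.

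The other rises were smaller or rested on fewer reads. PRR34-AS1 rose by 1.22 ± 0.34 and USP2-AS1, beside a deubiquitinase gene, by 1.13 ± 0.31 on the log2 scale. Both entered the set only through the stress-set GD library, at 55 and 62 reads. Over the 4 genotype-set libraries, whose reads the rule did not use, they changed by 1.38 and 1.17 (edgeR adjusted p 0.00832 and 0.0123). SBF2-AS1 rose by 0.89 ± 0.18 and FBXL19-AS1 by 0.64 ± 0.15. ATP6V0E2-AS1, beside a gene of the vacuolar proton pump, rose by 1.02 ± 0.30, but by only 0.57 in the genotype set alone (edgeR adjusted p 0.118), and its call was lost without either stress-set library or either deficient library.

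The other falls were ST20-AS1 (-0.995 ± 0.243), GNAS-AS1 (-0.84 ± 0.24), TMEM147-AS1 (-0.80 ± 0.19) and SH3RF3-AS1 (-0.49 ± 0.14). GNAS-AS1 belongs to the imprinted GNAS locus, which encodes the stimulatory G protein alpha subunit. GNAS-AS1 and SH3RF3-AS1 missed the threshold in DESeq2, at adjusted p 0.0709 and 0.0744. Each of PRR34-AS1, USP2-AS1, SBF2-AS1, FBXL19-AS1, GNAS-AS1 and SH3RF3-AS1 lost its call without any 1 library of the genotype set; TMEM147-AS1 lost it without either deficient library, and ST20-AS1 without either of them or the WT mock library of that set.

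The genotype set alone gave 16 antisense transcripts higher and 18 lower in GD among 155 (edgeR, 1 residual degree of freedom). Of all transcripts 39.0% were called, 19.1% higher and 19.9% lower. The rule did not use the reads of this set. It held 14 of the 15 transcripts called over all 6 libraries, but that fit contains the same 4 libraries, so the overlap is no independent support. Of those it added, AFF1-AS1 (-1.52 ± 0.56), TRG-AS1 (-1.46 ± 0.59) and NPPA-AS1 (-1.44 ± 0.58) had the largest falls. MAP3K20-AS1 (0.98 ± 0.36) and EGFR-AS1 (0.82 ± 0.30), inside the gene of the epidermal growth factor receptor, had the largest rises. Across the 155 members Pearson r between the GD changes of the 2 WT pairs, which share no library, was 0.46, and the same figure over 10368 transcripts was 0.47.

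In the stress set by itself, 11 of 144 members were at least 2-fold higher in GD and 6 at least 2-fold lower, among those reaching 50 reads in either (1 library each, no test). The background was 3.67% higher and 3.56% lower, and with library totals the members' split was 8 and 7. Among members not yet described, DDX11-AS1 had 93 reads in mock and 157 in GD, ZBED3-AS1 68 and 102, RASAL2-AS1 34 and 53, and PRKAG2-AS1 37 and 59. The reads of DDX11-AS1 correspond to a ratio of 2.49 after scaling, with a 95% counting interval of 1.91 to 3.25. On the lower side ZBED5-AS1 went from 103 to 22 reads, GNG12-AS1 from 90 to 28, ZNF503-AS2 from 66 to 16, ADPGK-AS1 from 62 to 16 and FOXN3-AS2 from 50 to 14. None of these 9 passed the test over 6 libraries (edgeR adjusted p 0.0587 to 0.83), and PRKAG2-AS1 had fewer reads in GD than in mock in both pairs of the genotype set. PRKAG2-AS1 entered the set through GD alone, and GNG12-AS1, ZNF503-AS2 and FOXN3-AS2 through mock alone, where each was high. Their stress-set differences, and the counts above that hold them, therefore come partly from the rule.

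Sense partners were compared where both tables held the same sense transcript, which left 107 pairs. Of the sense transcripts 11 rose and 13 fell in GD by the same edgeR test, against a background of 20.9%. In 3 pairs the antisense transcript rose and the sense transcript fell, in 1 both rose, in 1 both fell, and in 77 neither was called. Across the 107 pairs the changes had a Pearson correlation of 0.03 and a Spearman correlation of 0.06, and 61 pairs had the same sign. The pairs share libraries, depth and, where exons overlap, possibly reads, so the figure is a description. It was -0.01, 0.08 and 0.09 in the stress-set, WT and deficient pairs taken singly. Pairs with 5 prime ends together had r = 0.17 (n = 54), those with 3 prime ends together -0.20 (n = 27), and antisense genes within the sense gene -0.19 (n = 17).

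**Figure D3:**
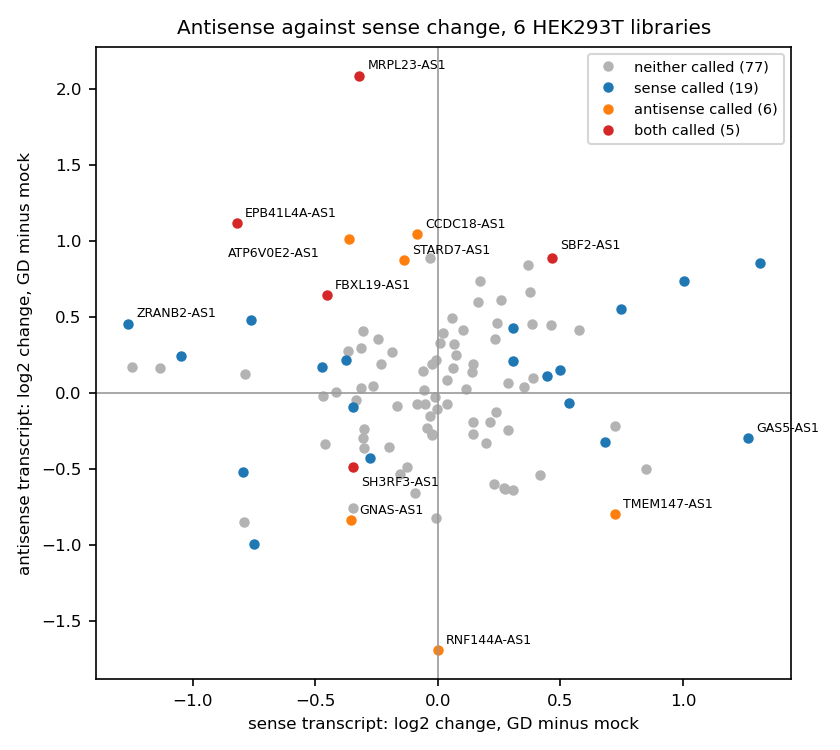
Log2 GD change of the antisense transcript (vertical) against that of its sense transcript (horizontal) for 107 pairs, from the edgeR fit over 6 libraries, coloured by which of the pair was called. The points show no trend (r = 0.03), and the 3 red points at upper left are the pairs in which the antisense rose and the sense fell.

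EPB41L4A was the clearest of the opposed pairs. The sense transcript had 721 and 269 reads in mock and GD of the stress set, 488 and 242 in WT, and 453 and 231 in deficient cells. Its change was -0.82 ± 0.13 (edgeR adjusted p 0.00303). Antisense reads per 100 sense reads were thus 29.8, 44.1 and 52.5 under mock and 132, 158 and 187 under GD, so the antisense outnumbered the sense reads in each GD library and in no mock library. In GENCODE 49.6% of the antisense exon bases lie in sense exons.

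MRPL23-AS1 read 2.89, 3.88 and 1.33 per 100 MRPL23 reads under mock and 14.5, 17.7 and 9.29 under GD, while MRPL23 fell by 0.32 ± 0.10 (edgeR adjusted p 0.0452). The ratio was higher under GD with no overlap between groups, and the antisense change was the larger part of it. FBXL19-AS1 lies head to head with FBXL19, an F-box protein gene, and read 24.2, 13.3 and 18.2 per 100 sense reads under mock and 60.8, 29.5 and 31.9 under GD. FBXL19 fell by 0.45 ± 0.09 (edgeR adjusted p 0.00874). The lowest GD ratio was above the highest mock ratio. An exact permutation test of 3 against 3 libraries cannot give a two-sided p below 0.1, so none was run on these ratios.

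SBF2, a myotubularin-family gene, rose with its antisense, by 0.47 ± 0.09 (edgeR adjusted p 0.00852), and SH3RF3 fell with its antisense by 0.35 ± 0.11 (edgeR adjusted p 0.0473). The sense transcripts of other called members gave other values. RNF144A changed by 0.00 ± 0.10, with 827 to 1490 reads in the 7 libraries, while its antisense fell. CCDC18 changed by -0.08 ± 0.11 and STARD7 by -0.14 ± 0.09, neither called. ATP6V0E2 (-0.36 ± 0.16) and GNAS (-0.36 ± 0.21) were not called, and TMEM147 had 39 reads or fewer, so its change could not be read at this depth. TMCC1, ST20, USP2 and PRR34 lacked a sense transcript shared by both tables that could be tested.

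Where the sense partner moved and the antisense was not called, 10 sense transcripts rose and 9 fell. GAS5, a growth-arrest RNA that hosts small nucleolar RNAs, went from 1620 to 3802 reads in the stress set, from 917 to 1680 in WT and from 1002 to 1668 in deficient cells, a rise of 1.27 ± 0.15 (edgeR adjusted p 0.000872). GAS5-AS1 had 244, 134 and 163 reads under mock and 107, 101 and 138 under GD (-0.30 ± 0.20). Antisense reads per 100 GAS5 reads were 15.1, 14.6 and 16.3 under mock and 2.81, 6.01 and 8.27 under GD, lower in each pair. ZBED3 (1.31 ± 0.17) and EGFR (1.005 ± 0.120) rose while their antisense transcripts stood at 0.85 ± 0.29 and 0.74 ± 0.26, adjusted p 0.066 and 0.0689 in edgeR. ZRANB2, a splicing factor gene, fell by 1.26 ± 0.35 and the proteasome gene PSMA3 by 1.05 ± 0.29, on transcripts with 15 to 172 and 16 to 294 reads, and FOXD2, a forkhead factor gene, fell by 0.80 ± 0.15.

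**Figure D4:**
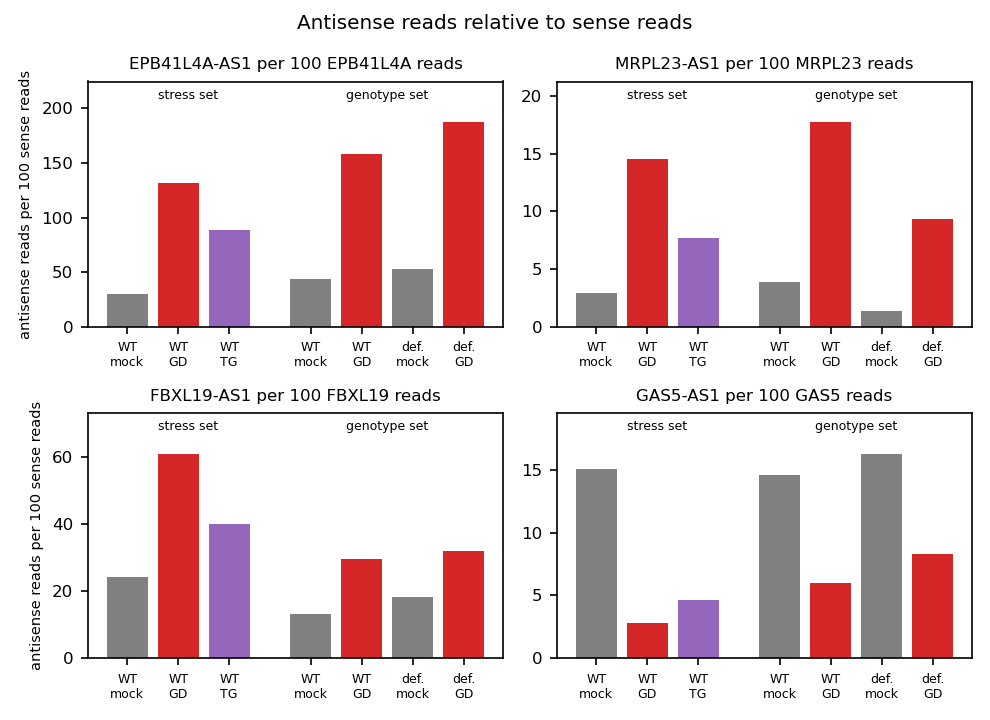
Antisense reads per 100 sense reads in each library for the pairs EPB41L4A, MRPL23, FBXL19 and GAS5 (grey mock, red GD, purple TG; def. is UFD1s-deficient). GD bars are above the mock bars of their set in the first 3 panels and below them for GAS5.

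TG was measured in 1 library, so its values have counting intervals only. Of 151 members with 50 or more reads in mock or TG, 6 were at least 2-fold higher and 10 at least 2-fold lower, against a background of 4.79% higher and 3.33% lower of 9116 transcripts. Scaled by library totals the split was 6 and 16. The members' median TG change was -0.13, against 0.01 for all.

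MATN1-AS1, beside the cartilage matrix gene MATN1, had 33 reads in mock, 38 in GD and 113 in TG, a TG ratio of 3.32 (95% counting interval 2.23 to 5.05). MATN1 itself had 6, 7 and 70 reads, so both were highest in TG. DPP9-AS1 (28 and 73 reads, mock and TG), MRPL23-AS1 (31 and 80), STARD7-AS1 (154 and 374), ZRANB2-AS1 (113 and 263) and EPB41L4A-AS1 (215 and 489) had ratios of 2.53, 2.50, 2.35, 2.25 and 2.20. MATN1-AS1, DPP9-AS1 and HM13-AS1 (26, 6 and 56 reads, with no row in the genotype table) are among the 12 members that entered through TG alone. EPB41L4A-AS1 read 88.7 and MRPL23-AS1 7.69 per 100 sense reads in TG, between their mock and GD values in the stress set. TMCC1-AS1 and CCDC18-AS1, which rose in GD, had TG changes of -0.16 and -0.30.

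On the lower side ARHGAP5-AS1 went from 120 reads in mock to 20 in TG, a ratio of 0.161 (0.0952 to 0.261), with 48 reads in GD. Its sense gene ARHGAP5 had 25, 4 and 38 reads on the transcript in the table. FOXD2-AS1 went from 390 to 129 reads, a ratio of 0.32 (0.261 to 0.392), and FOXD2 from 488 to 217 (0.431). LRP4-AS1, ZNF503-AS2, GNG12-AS1, FOXN3-AS2, LBX1-AS1, KTN1-AS1, RNF144A-AS1 and SAP30L-AS1 had ratios of 0.239 to 0.477. LRP4, ZNF503 and LBX1 encode a receptor of the LDL family, a zinc finger protein and a homeobox factor. Mock reads of these 8 were 50 to 140, so their counting intervals are wide, and ARHGAP5-AS1, LRP4-AS1, ZNF503-AS2, GNG12-AS1, FOXN3-AS2 and KTN1-AS1 entered the set through mock alone. Across 140 pairs the TG changes of antisense and sense had r = 0.19, and 0.12 without the MATN1 pair.

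**Figure D5:**
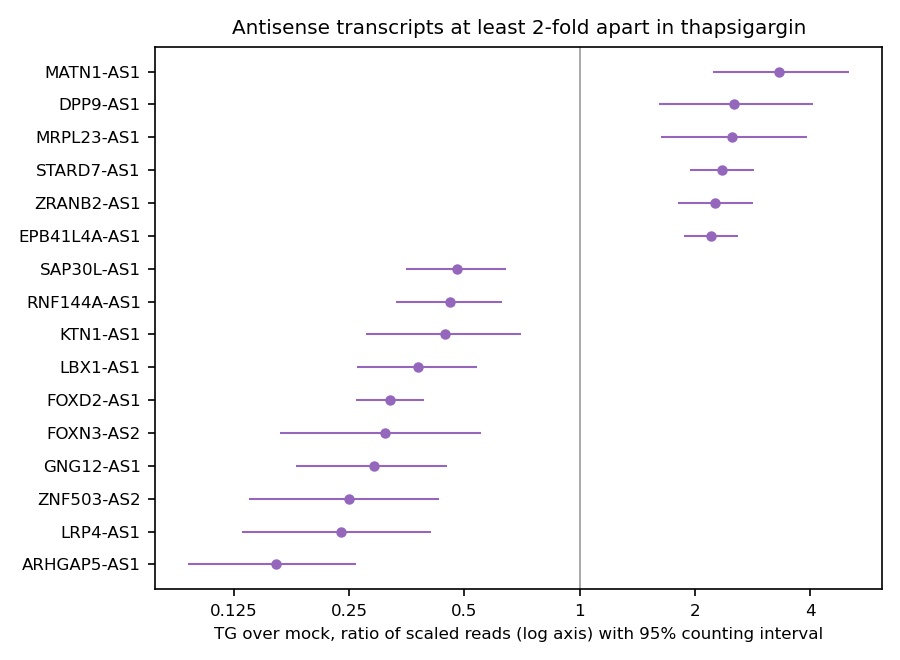
Ratio of TG to mock scaled reads (log axis) with 95% counting intervals for the 16 antisense transcripts at least 2-fold apart in the stress set, 1 library each. The 6 above 1 lie between 2.20 and 3.32, and ARHGAP5-AS1 is the lowest at 0.161.

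Between UFD1s-deficient and WT cells no antisense transcript passed the edgeR test over 6 libraries, 0 of 155, where 1.11% of all transcripts did (0.328% higher and 0.781% lower); 14 members had an unadjusted p under 0.05, and DESeq2 also called 0. In the simulated data this term recovered 12 of 18 antisense transcripts planted at 2-fold. Those data gave every transcript the same dispersion and no difference in response between sets. The share therefore does not tell how many real 2-fold changes would be called. ATP6V0E2-AS1 and MRPL23-AS1, below, were more than 2-fold lower and not called (edgeR adjusted p 0.167 and 0.139 over 6 libraries). The genotype set alone gave 10 members lower in the deficient cells and none higher, against 9.91% of all transcripts lower and 8.83% higher. As many were called without the stress-set mock or the stress-set GD library, and 1 without the WT GD library of the genotype set. PAXIP1-AS1 had 13.6 and 13.6 CPM in the WT libraries (mock, then GD) and 7.54 and 7.73 in deficient cells, and its change was -0.83 ± 0.23 (edgeR adjusted p 0.128 over 6 libraries and 0.0032 in the genotype set alone). ATP6V0E2-AS1 had 7.60 and 10.2 CPM in WT and 2.91 and 4.98 in deficient cells (-1.22 over 6 libraries), and MRPL23-AS1 4.39 and 16.4 in WT against 1.49 and 9.02 (-1.12). In these 3 transcripts each deficient library lay below the WT library of the same treatment. They were picked from the 10 called lower in those same libraries, so this order follows largely from the choice. Differences between 2 lines with 1 library per condition cannot be told apart from differences between those cultures. The GD response itself differed between genotypes in 0 of 155 members by an edgeR interaction term (1 at an unadjusted p under 0.05; 0 of 10368 transcripts called). Between the genotype set and the stress set it differed in 3 of 155 members, against 10.4% of all.

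Genes that act on such RNAs were read from lists chosen by function. Of 20 tested genes of nuclear RNA decay, 5 rose in GD and 1 fell, with a list median of 0.10 against -0.02 over all transcripts; of all transcripts 9.75% rose and 11.1% fell. ZCCHC7, of a complex that tails nuclear RNAs for decay, rose by 0.73 ± 0.12 (edgeR adjusted p 0.0042), the exosome subunit EXOSC5 by 0.53 ± 0.13 and ZCCHC8, of the complex that targets short nuclear RNAs to the exosome, by 0.50 ± 0.09. The cap-binding gene NCBP1 fell by 0.43 ± 0.10. Of 19 genes of cleavage and transcription termination 3 rose and 4 fell, among them FIP1L1 (1.16 ± 0.25), CPSF7 (0.66 ± 0.14), CSTF3 (-0.84 ± 0.11) and PCF11 (-0.56 ± 0.09). The FIP1L1 transcript had only 46 to 124 reads in the 7 libraries. Of 13 genes that handle double-stranded RNA, DGCR8 (-0.71 ± 0.22) and AGO1 (-0.36 ± 0.09) fell and the other 11 were not called. Several of those 11 were scarce, such as ADAR (38 to 119 reads), DHX9 (56 to 167) and DICER1 (36 to 79), while ILF2 had 880 to 1943. Each row is 1 transcript, so these values need not hold for the whole gene. Beside the same 9.75% and 11.1% over all transcripts, 4 of 65 LINC symbols rose and 4 fell, 8 of 26 host genes rose and 2 fell, and 1 of 20 intronic, overlapping or divergent transcripts rose and 1 fell. Of 6 nuclear-retained RNAs 3 rose, including MALAT1 (0.82 ± 0.15) and NEAT1 (0.61 ± 0.11).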

How the data were processed

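Ribosomal RNA-depleted total RNA of 7 HEK293T libraries was analysed from 2 tables of whole-number read counts per RefSeq transcript, as deposited by the authors. Per the submitters' processing notes, the tools were Bowtie2, bedtools, cutadapt and FastQC and the human build hg19, with no role or order; the sources used here do not give strand use in counting. The members and gene lists were chosen with earlier results of these data known.

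Counts of the 10368 transcripts that both tables hold were fitted with edgeR 4.0.16 (R 4.3.3; filterByExpr, TMM, quasi-likelihood) on set, genotype and treatment over the 6 mock and GD libraries. Benjamini-Hochberg adjustment was over all tested transcripts, with a threshold of 0.05. The SE given with an edgeR change is the absolute log2 change divided by the square root of its quasi-likelihood F statistic. DESeq2 1.42.0 with the same terms, other scalings, filters, sample choices and leaving out each library were tried. Single libraries were compared as ratios of TMM-scaled reads, called at 2-fold with a prior count of 5 and 50 or more reads in the higher library; 95% intervals are exact, conditional on the total, and cover counting error only.

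Named transcripts are those called or at least 2-fold apart, the 5 with most reads in the stress set, 3 on each side of the read minimum, their sense partners, and up to 4 genes per list; members named for the genotype set alone, and other partners, were chosen after their values were seen. 1 transcript that this rule names is not reported here. Sense partners are the rows carrying the symbol before the dash: 140 members had one in the stress table, 44 of them under 50 reads in each library, and some of these rows hold a rare transcript of the gene. Gene arrangement came from GENCODE 29 (GRCh38) and sequences from RefSeq; the files' own build is hg19, so no coordinates were carried between them. On simulated counts with planted GD changes, 94% of 2-fold and 100% of 4-fold changes were recovered, with 13 false calls among 10368 transcripts; for the genotype term the shares were 75% and 97%, with 8 false calls. Among planted antisense transcripts, 17 of 18 at 2-fold and 22 of 22 at 4-fold were recovered for GD. For genotype 12 of 18 and 21 of 22 were recovered. The simulation gave every transcript the same dispersion and the same change in both sets, so these shares do not carry over to the real counts.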

Additional observations from a re-analysis of the deposited data

Results flagged for a closer look

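The GD response of 3 antisense transcripts differed between the genotype set and the stress set by an interaction term in edgeR (1 residual degree of freedom; 1083 of 10368 transcripts, 10.4%, differed in the same test). STARD4-AS1, beside a cholesterol transfer protein gene, changed by 0.78 on the log2 scale in the stress set and by -0.48 and -0.73 in WT and deficient cells of the genotype set, a difference of -1.41 ± 0.34 (edgeR adjusted p 0.0094). SH3BP5-AS1 changed by 0.40 in the stress set and by -0.28 and -0.78 in the genotype set, a difference of -0.93 ± 0.27 (edgeR adjusted p 0.0284). TTN-AS1, antisense to the titin gene, changed by 0.29 and by -0.28 and -0.63, a difference of -0.74 ± 0.20 (edgeR adjusted p 0.023). In all 3 the stress-set pair was higher in GD and both genotype-set pairs were lower, so the 2 WT pairs, which carry the same labels, moved in opposite directions.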

How the results depend on the processing

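Of the 15 GD calls over 6 libraries, 15 were kept with RLE size factors, 14 with library totals and 13 with DESeq2. The number kept was 12 where a mean of 50 reads in each set was asked. The default filter on low counts removed no transcript, so the fit with no filter was the same fit. The genotype set alone gave 34 calls (14 of the 15 kept), the 4 WT libraries 6 (all among the 15), and treatment as the only term, with no replicate block for the set, 0. Leaving out 1 library in turn gave 6 to 36 calls: 30 without the stress-set mock and 36 without the stress-set GD library, 8 and 9 without the genotype-set WT mock and WT GD libraries, and 6 without either deficient library. The common dispersion was 0.0192 over 6 libraries and 0.0052 without either stress-set library. It was 0.0256 without either WT library of the genotype set and 0.0259 without either deficient library. The library whose partner is left out is fitted exactly, so the 6 fits amount to leaving out each of the 3 pairs. For UFD1s-deficient against WT the count was 0 with 6 libraries, 10 in the genotype set alone, and 0 to 10 leaving out 1 library in turn. With a read minimum of 100 in place of 50, the TG count went from 16 to 9 and the stress-set GD count from 17 to 10. The TG correlation of antisense and sense, 0.19 over 140 pairs, was 0.12 without the MATN1 pair, an alternative added after the data were seen. Over the 96 pairs with 50 or more sense reads it was 0.31, and 0.22 without the MATN1 pair; the cause of these shifts was not tested. No paired analysis by replicate number was possible because the HEK293T labels carry none. Depth limits precision: the median SE of a member's GD change was 0.27 on the log2 scale, against 0.15 over all transcripts.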

Other observations

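In the genotype table, 19 further antisense symbols reached 50 reads but fell outside the rule, where the stress table lists another transcript, fewer reads or no row. MAGI2-AS3 had 568 to 798 reads in the 4 libraries, against 2 reads or fewer on the transcript in the stress table. TRAF3IP2-AS1 went from 86 reads in mock to 251 in GD in WT and from 122 to 271 in deficient cells. ASB16-AS1 went from 242 to 136 in WT and from 204 to 141 in deficient cells, and NR2F1-AS1, beside a nuclear receptor gene, from 73 and 103 to 38 in both. In these last 3 the unscaled GD reads lay on one side of the mock reads in both genotypes. So did those of others of the 19, among them PARD6G-AS1 and HLA-F-AS1, while those of MAGI2-AS3 and others did not. The share of all transcripts with this pattern was not counted. With 1 library per condition in that table and no counterpart in the stress set, TRAF3IP2-AS1, ASB16-AS1 and NR2F1-AS1 were not tested.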
